A study of Mus musculus with 4 samples.

Results

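Collagens, laminins and the proteoglycans and glycoproteins of the brain's extracellular matrix were followed in the telencephalon, the embryonic forebrain, of mice with Ctcf intact or deleted by a Cre active in neural progenitors. The set was chosen by symbol and not by any measured value. It took every collagen gene (44), every laminin chain gene (11) and 18 named genes, from the basement membrane linkers Nid1, Nid2, Hspg2 and Agrn to the receptors Dag1, Itga6 and Itgb1. It held 73 of the 48795 genes in the deposited table, and 72 of them had enough reads to be tested. The one left out was Col10a1, a collagen of growth plate cartilage, with 12 and 5 reads in the controls and 12 and 4 in the Ctcf-null libraries.

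CTCF is a DNA-binding zinc finger protein that anchors chromatin loops, and the study asked which transcripts differ in its absence. All 4 libraries came from C57BL/6 embryos at embryonic day 14. The controls carried floxed alleles of Ctcf, and the labels give no Cre for them. The Ctcf-null embryos carried the same floxed alleles and NestinCre, whose recombinase is driven by Nestin sequences in neural progenitor cells and so acts in these cells and their descendants. Blood vessels, meninges and skull, which make much of the matrix around the brain, arise mainly from other lineages, and the driver was not designed to reach them. There were 2 libraries per genotype, numbered as 2 pairs. The sources used here do not say what the libraries of a pair share or whether each library is from its own embryo, and the spread behind the p-values is that of these samples and may be technical.

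Depth ranged from 25519331 to 43812558 reads per library. The controls had 436.72 and 1133.21 normalized read counts of Ctcf itself, and the Ctcf-null libraries had 38.89 and 61.96, which is 14.1-fold lower (log2 fold change -3.81, SE 0.16, limma adjusted p = 3.3e-12). The libraries differed more between the pairs than between the genotypes. Taking the median over all tested genes, pairs differed by 0.835 and genotypes by 0.204 on the log2 scale in absolute value, so the genotypes were compared within pairs. Without the block of pairs limma called 0 genes, with 170 at an unadjusted p under 0.05, and none of the 72 matrix genes reached that level. Every call below therefore rests on the pairing. The 10 most abundant genes took 26.0% and 21.9% of the reads in the first pair of libraries and 8.8% and 8.4% in the second. The telencephalic genes Emx1, Emx2, Dlx2 and Lhx2 were present in every library of the labelled tissue. Emx1, Dlx2 and Lhx2 were called lower in Ctcf-null libraries, as were 10.1% of all tested genes. The call of Dlx2 was lost in DESeq2 (adjusted p = 0.52).

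The matrix of the developing brain has several layers. Basement membranes under the meninges and around vessels are sheets of laminin and collagen IV joined by nidogens and heparan sulfate proteoglycans, and radial glia attach to the outer sheet through integrins and dystroglycan. Fibrillar collagens form the cables of connective tissue. Inside the brain tissue itself fibrillar collagen is scarce, and the space between cells is filled with hyaluronan, lecticans (versican, aggrecan, brevican and neurocan) and tenascins.

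In Ctcf-null telencephalon most of this set did not pass the test, and 4 of the 7 genes that did were lectican or tenascin genes. The lecticans Vcan, Bcan and Acan and the collagen Col12a1 rose. The tenascin gene Tnr, the cartilage collagen gene Col2a1 and the basement membrane linker Agrn fell. Falls and rises were 2.55-fold for Tnr, 2.02-fold for Col2a1, 2.00-fold for Col12a1 and 1.76-fold for Bcan, and they were smaller for Vcan and Agrn. The rise of Acan rests on few reads. Since whole tissue was sequenced, fewer cells of a type and less RNA per cell cannot be told apart in any of these values.

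The test was limma on log2(normalized count + 1) with the pair as a block, over 22158 genes, and a gene was called at a Benjamini-Hochberg adjusted p under 0.05 (two-sided). Fold changes on that scale understate the change of genes with low counts. Of the 72 matrix genes 4 rose and 3 fell, or 9.72%, against 13.7% of all tested genes. Over all genes 3.67% rose and 10.1% fell, while the matrix set had 5.56% and 4.17%. The median log2 fold change of the set was 0.00, and that of all tested genes was -0.07. The set's median was -0.05 in pair 1 and 0.07 in pair 2, and for 40 of the 72 genes both pairs had one sign. In 49 of the 72 the change was under 0.25 on the log2 scale in either direction. The 2 genotypes did not overlap in normalized count for 8 matrix genes, or 11.1%, where 14.1% of all tested genes showed this. On simulated data the same test found 62.2% of genes changed 1.5-fold, and smaller changes were not simulated. Genes with few reads were not among those changed, so the rate does not cover them.

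**Figure D1:**
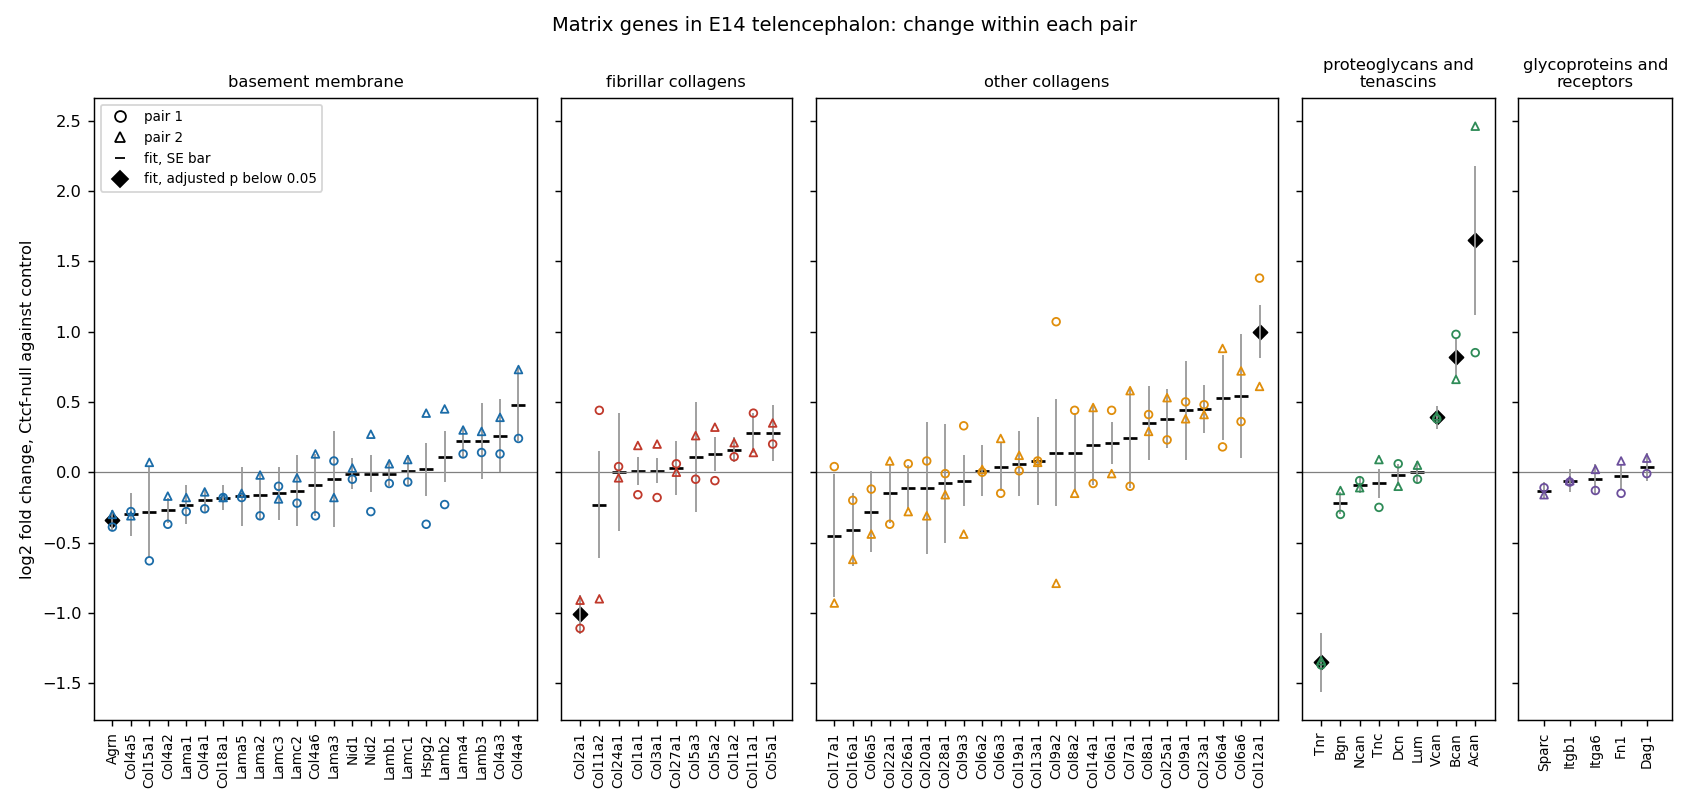
Log2 fold change of Ctcf-null against control on the log2(normalized count + 1) scale for the 72 matrix genes tested, ordered within 5 groups; circles and triangles are pairs 1 and 2, dashes are the fitted values with bars of 1 SE, and diamonds are the 7 genes with an adjusted p under 0.05. Most genes lie within 0.25 of 0, and 4 of the 7 diamonds are in the group of proteoglycans and tenascins.

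Among the 23 basement membrane genes 0 rose and 1 fell (4.35% called, against 13.7% of all tested genes). Their median log2 fold change was -0.09, with a range from -0.34 to 0.48. In edgeR with the pair block and TMM scaling, which called 11.9% of all tested genes, the counts were also 0 and 1. The gene that fell was Agrn (ENSMUSG00000041936.18, chr4:156165290-156197488 on GRCm38, as all positions here, minus strand), which encodes agrin, a large heparan sulfate proteoglycan that binds laminin and dystroglycan. Controls 1 and 2 had 2712.80 and 1749.85 normalized counts of it, and the matching Ctcf-null libraries had 2071.82 and 1422.63. Each Ctcf-null library was lower than the control of its pair, but the genotypes overlapped, because both libraries of pair 1 were above both of pair 2. The log2 fold change was -0.34 (SE 0.07, limma adjusted p = 0.0038), with -0.39 and -0.30 in the pairs. The call was lost with upper-quartile scaling (edgeR adjusted p = 0.051), which called 11.0% of all genes, and in DESeq2 (adjusted p = 0.13), which called 3.75%.

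Collagen IV forms the covalent network of basement membranes, and its 6 genes lie in 3 head-to-head pairs on opposite strands. None of the 6 passed, where 13.7% of all tested genes did. Col4a1 and Col4a2, which encode the chains found in nearly all basement membranes, overlap by 22 bases at their starts (chr8:11198423-11312826 and chr8:11312805-11449287). Col4a1 was at 1043.32 and 1370.86 in the controls, compared with 871.16 and 1245.26 in the Ctcf-null libraries. Col4a2 was at 672.42 and 944.34 against 520.43 and 838.27. Both were lower in the Ctcf-null library of each pair, by log2 values of -0.20 (SE 0.08, limma adjusted p = 0.13) and -0.27 (SE 0.09, adjusted p = 0.062), and neither difference passed.

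The other collagen IV genes had lower levels. Per kilobase of exon, Col4a1 and Col4a2 had mean normalized counts of 152 and 112, against 21.9 for Col4a5, 8.37 for Col4a6, 4.35 for Col4a4 and 4.08 for Col4a3. Col4a3 and Col4a4, whose starts are 71 bases apart on chromosome 1, had log2 fold changes of 0.26 (SE 0.26) and 0.48 (SE 0.26). Col4a5 and Col4a6, 1308 bases apart on chromosome X, had -0.30 (SE 0.15) and -0.09 (SE 0.22). The 2 genes of each head-to-head pair thus had fitted values of the same sign. All 6 were within what the test could not tell from 0, with limma adjusted p from 0.062 to 0.84. For Col4a6 the 2 pairs of libraries had opposite signs (-0.31 and 0.13). Col4a3 shares 5.65% of its exon bases with a transcript on the opposite strand, whose reads cannot be told apart without strand information.

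Laminins are cross-shaped trimers of an alpha, a beta and a gamma chain that start the assembly of the sheet. None of the 11 chain genes passed, where 13.7% of all tested genes did. Their log2 fold changes lay between -0.23 and 0.22 with a median of -0.05. The chains of laminin-111, the trimer of the early embryo, are encoded by Lama1, Lamb1 and Lamc1. Lama1 was at 329.09 and 136.34 in the controls, compared with 271.53 and 120.27 in the Ctcf-null libraries (log2 change of -0.23, SE 0.14, limma adjusted p = 0.31). Lamb1 was at 1609.89 and 591.62 against 1523.11 and 618.38, a log2 difference of -0.01 (SE 0.09) that turned to 0.04 with TMM scaling. Lamc1 was at 645.73 and 292.68 against 613.77 and 311.01, with a difference of 0.01 (SE 0.11). In all 3 genes both libraries of pair 1 were higher than both of pair 2, and the genotypes overlapped.

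The remaining basement membrane genes did not pass either. The nidogen genes Nid1 and Nid2, whose products bridge laminin and collagen IV, both had a log2 fold change of -0.01. For Nid2 the pairs had opposite signs (-0.28 and 0.27), and 8.45% of its exon bases are shared with Rtraf on the opposite strand. Hspg2, which encodes perlecan, was at 156.54 and 102.56 against 120.92 and 137.28, lower in pair 1 and higher in pair 2. Col18a1, the source of endostatin, was at 347.77 and 1284.56 against 306.18 and 1133.49, with -0.18 in each pair (SE 0.09, limma adjusted p = 0.23). Col15a1 had -0.63 and 0.07 in the pairs.

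Of the 11 fibrillar collagen genes 0 rose and 1 fell (9.09% called, against 13.7% of all tested genes). Their median log2 fold change was 0.03. The gene that fell was Col2a1 (ENSMUSG00000022483.16, chr15:97975602-98004695, minus strand), the main collagen of cartilage, which is also transcribed in the embryonic neuroepithelium. Controls 1 and 2 had 196.57 and 435.27 normalized counts of it, and Ctcf-null libraries 1 and 2 had 90.51 and 230.83. Within each pair the Ctcf-null library had about the same loss, -1.11 and -0.91 on the log2 scale, although the genotypes overlapped across pairs. The log2 fold change was -1.01 (SE 0.14, limma adjusted p = 3.5e-05).

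The genes of the type I and type III collagens of connective tissue had the highest levels of this group per kilobase and did not pass. Col1a1 was at 342.44 and 1344.59 in the controls, compared with 305.47 and 1535.62 in the Ctcf-null libraries (log2 change of 0.01, SE 0.10). Col3a1 was at 529.22 and 1903.70 against 465.98 and 2186.79 (0.01, SE 0.09). Col1a2 was at 426.93 and 956.85 against 460.33 and 1109.19 (0.16, SE 0.09). None passed, with limma adjusted p of 0.29 to 0.97. Libraries of pair 2 were higher than those of pair 1 in each of these genes, in both genotypes. The partners of type II collagen in cartilage fibrils did not pass: Col11a1 had a log2 fold change of 0.28 (SE 0.14), Col11a2 of -0.23 (SE 0.38), Col9a1 of 0.44 (SE 0.35), Col9a2 of 0.14 (SE 0.38) and Col9a3 of -0.06 (SE 0.18).

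Cartilage and bone genes chosen as markers were low. Of 7 such genes 5 were tested and 0 passed, against 13.7% of all tested genes, with a median of -0.02. Their summed normalized count was 152.1 and 191.4 in the controls, compared with 166.2 and 156.7 in the Ctcf-null libraries, and none of the 7 was at 0 in all libraries. Matn1, a defining cartilage gene, was at 2.67 and 1.25 against 2.12 and 0, or 3 reads at most. The part of cartilage in the Col2a1 difference was not tested beyond these values.

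What makes a collagen is a coding sequence with stretches in which each run of 3 codons begins with glycine. Only glycine fits inside the triple helix that such stretches encode. The stretches below are shown because Col2a1 fell, Col12a1 rose and Col4a1 is the most abundant network collagen here per kilobase. They come from the GENCODE M21 transcripts on GRCm38, each is spliced from exons and read 5′ to 3′ on the coding strand, and capitals mark the GGN codons of glycine that open each triplet.
Col2a1, chr15:97996525-97997320, minus strand, codons 201 to 224: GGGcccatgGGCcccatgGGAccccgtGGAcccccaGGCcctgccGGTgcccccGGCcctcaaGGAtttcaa
Col12a1, chr9:79612441-79613769, minus strand, codons 2805 to 2828: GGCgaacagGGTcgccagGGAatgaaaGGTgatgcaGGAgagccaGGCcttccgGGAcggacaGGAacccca
Col4a1, chr8:11247042-11267614, minus strand, codons 43 to 66: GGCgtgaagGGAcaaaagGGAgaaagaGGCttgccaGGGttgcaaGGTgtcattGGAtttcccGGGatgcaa
All 3 hold 8 triplets in 72 bases. Over the whole coding sequence the longest unbroken run was 339 triplets in Col2a1, 40 in Col4a1, whose repeats are interrupted into 22 runs of at least 5 triplets, and 32 in Col12a1. Among the other fibrillar collagens it was 337 to 344 except in Col24a1 (216) and Col27a1 (217). Genes of the set that are no collagens had runs of 1 to 3. These features were examined after the values were seen, and they separate types of collagen, not genes that passed from genes that did not: Col2a1 fell while Col1a2, with a run of the same length, was at 0.16.

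Of the other collagens 24 of 25 were tested, with a median of 0.11. In this group 1 rose and 0 fell (4.17% called, against 13.7% of all tested genes). The gene that rose was Col12a1 (ENSMUSG00000032332.17, chr9:79598991-79718831, minus strand), a collagen with interrupted helices that sits on the surface of fibrils. Controls 1 and 2 had 64.04 and 110.07 normalized counts of it, while Ctcf-null libraries 1 and 2 had 168.29 and 168.87. Both Ctcf-null libraries were above both controls. The log2 fold change was 1.00 (SE 0.19, limma adjusted p = 0.0012), with 1.38 in pair 1 and 0.61 in pair 2.

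Col23a1, a membrane-spanning collagen, also had genotypes that did not overlap, at 104.06 and 100.06 against 145.66 and 133.64. Its log2 fold change was 0.45 (SE 0.17, limma adjusted p = 0.083), and it passed in edgeR (adjusted p = 0.044). It was singled out after its values were seen. The most abundant of this group by normalized count were Col9a3, Col6a1 and Col26a1. Col6a1, a chain of the beaded filaments of type VI collagen, was at 72.93 and 367.73 in the controls, compared with 98.99 and 364.47 in the Ctcf-null libraries (0.21, SE 0.15). Its partners Col6a2 and Col6a3 had 0.01 and 0.04. Col26a1 was at 106.73 and 228.89 against 111.02 and 188.31 (-0.11, SE 0.16). Col9a3 was at 40.91 and 584.12 against 51.62 and 428.85, with opposite signs in the pairs (0.33 and -0.44), and 6.07% of its exon bases are shared with Tcfl5 on the opposite strand.

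**Figure D2:**
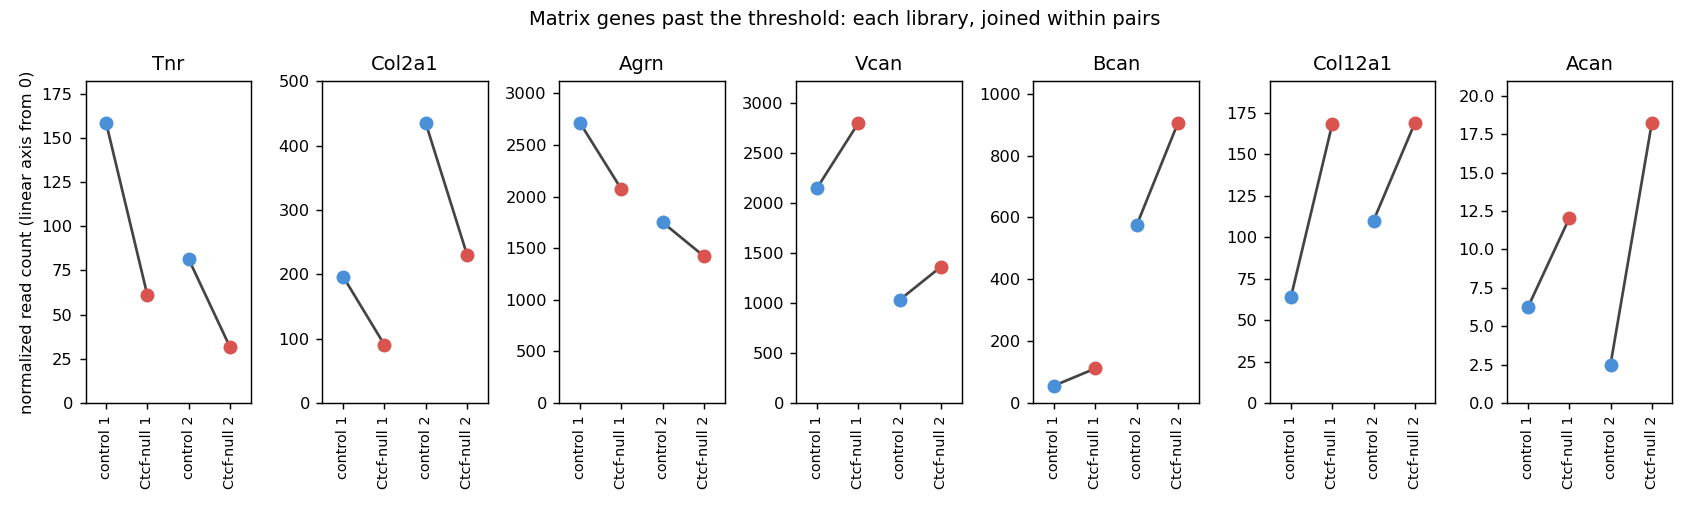
Normalized read count of the 7 matrix genes that passed, in each library, on linear axes from 0 that differ between genes; lines join the control (blue) and Ctcf-null (red) library of a pair. Both lines run the same way within a gene. For Bcan, Vcan, Agrn and Col2a1 the genotypes overlap, and the step between the 2 controls (56.03 to 574.11 for Bcan) exceeds the step between genotypes.

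The proteoglycans and tenascins held 4 of the 7 calls. Of 9 genes 3 rose and 1 fell (44.4% called, against 13.7% of all tested genes), while the group's median was -0.02. In DESeq2, which called 3.75% of all tested genes, 2 rose and 1 fell, and Acan, with few reads, had no adjusted p. The lecticans are proteoglycans that bind hyaluronan at one end and tenascins at the other and carry chondroitin sulfate chains. Of the 4 lectican genes 3 rose and 0 fell, with a median of 0.61, and this subset was singled out after its values were seen.

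Vcan (ENSMUSG00000021614.16, chr13:89655312-89742509, minus strand), which encodes versican, the lectican of early embryonic matrix, was at 2151.56 and 1031.90 in the controls, compared with 2801.56 and 1363.10 in the Ctcf-null libraries. Both pairs had nearly the same rise, 0.38 and 0.40. The libraries of pair 1 were above those of pair 2 in both genotypes. Control 1 was therefore above Ctcf-null 2, and the genotypes overlapped. The log2 fold change was 0.39 (SE 0.08, limma adjusted p = 0.0014). With 825 to 3962 reads per library it is among the more precisely measured genes of the set.

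Bcan (ENSMUSG00000004892.13, chr3:87987531-88000230, minus strand), which encodes brevican, a lectican found almost only in nervous tissue, was at 56.03 and 574.11 in the controls, compared with 111.72 and 905.09 in the Ctcf-null libraries. The rise was 0.98 in pair 1 and 0.66 in pair 2 (log2 fold change 0.82, SE 0.13, limma adjusted p = 2.6e-04). The libraries of pair 2 were above those of pair 1 in both genotypes. Control 2 was therefore above Ctcf-null 1, and the genotypes overlapped.

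Acan (ENSMUSG00000030607.7, chr7:79053483-79115099, plus strand), which encodes aggrecan, the large proteoglycan of cartilage and of the nets around some mature neurons, was close to the limit of detection. It had 7 and 2 reads in the controls against 17 and 15 in the Ctcf-null libraries, or 6.23 and 2.5 against 12.02 and 18.22 normalized counts. The genotypes did not overlap, but the pairs differed, with 0.85 and 2.46. The log2 fold change was 1.65 (SE 0.53, limma adjusted p = 0.045), and with a pseudocount of 0.5 the gene did not pass (adjusted p = 0.066). DESeq2 gave it no adjusted p.

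Ncan, which encodes neurocan, was the most abundant lectican by far, with a mean of 1920 normalized counts per kilobase of exon against 127 for Vcan, 101 for Bcan and 1.30 for Acan. It was at 18130.39 and 10248.94 in the controls, compared with 17384.22 and 9499.19 in the Ctcf-null libraries. Its log2 fold change was -0.09 (SE 0.06, limma adjusted p = 0.40), and with upper-quartile scaling it was 0.02. The summed normalized count of the 4 lecticans was 20344.2 and 11857.4 in the controls, compared with 20309.5 and 11785.6 in the Ctcf-null libraries. The sum, most of it Ncan, thus differed little within either pair while 3 of its parts rose.

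Tnr (ENSMUSG00000015829.13, chr1:159523769-159931729, plus strand) had the largest fall of the set. It encodes tenascin-R, a glycoprotein of the nervous system that binds lecticans. Its normalized count was 158.32 and 81.30 in the controls, compared with 60.81 and 31.59 in the Ctcf-null libraries. Both Ctcf-null libraries were below both controls. The log2 fold change was -1.35 (SE 0.21, limma adjusted p = 1.3e-04), and the pairs had -1.37 and -1.34. An antisense gene shares 3.44% of the exon bases of Tnr. The related Tnc, which encodes tenascin-C, a product of radial glia, was at 1735.30 and 442.78 against 1456.64 and 470.16 and did not pass (-0.08, SE 0.10).

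The small leucine-rich proteoglycans decorin, lumican and biglycan bind collagen fibrils and mark connective tissue. Dcn was at 1444.45 and 2361.48 against 1506.14 and 2202.59 (-0.02, SE 0.08, and 0.03 with TMM scaling), and Lum had 0.00 (SE 0.08). Bgn was at 1415.99 and 1439.65 in the controls, compared with 1146.93 and 1315.72 in the Ctcf-null libraries. Its genotypes did not overlap, but it did not pass (-0.22, SE 0.08, limma adjusted p = 0.087).

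None of the 5 glycoproteins and receptors passed, where 13.7% of all tested genes did. Their log2 fold changes lay between -0.13 and 0.04. Sparc, a collagen-binding protein made in abundance by vessel cells, had the highest level per kilobase of the whole set (mean 2410). It was at 5868.54 and 13294.60 in the controls, compared with 5434.12 and 11930.18 in the Ctcf-null libraries (-0.13, SE 0.06, limma adjusted p = 0.17). Fn1, the fibronectin gene, was at 1879.39 and 806.76 against 1691.40 and 855.28 (-0.03, SE 0.09, and 0.01 with TMM scaling). Dag1, which encodes dystroglycan, the receptor for agrin and laminin, was at 364.67 and 869.30 against 362.75 and 929.39 (0.04, SE 0.10). The laminin-binding integrin is encoded by Itga6 and Itgb1. Itga6 was at 490.97 and 346.47 against 449.72 and 352.32 (-0.05, SE 0.11), and Itgb1 at 1384.86 and 1952.48 against 1320.88 and 1874.57 (-0.06, SE 0.08). With upper-quartile scaling both integrin genes were at 0.04.

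A further 65 genes that make, bind or cut matrix were examined beside the set. Of the 63 tested 9 rose and 3 fell (19.0% called, against 13.7% of all tested genes), with a median of 0.04. The shares were 14.3% higher and 4.76% lower, against 3.67% and 10.1% of all tested genes. The list was chosen with earlier results of these data known, so these shares are a description only. With edgeR the counts were 10 and 1. In DESeq2 only Fbln2, P4ha1, Itga5 and Bmp1 passed (3 higher and 1 lower), and the calls of the other 8 genes were lost. The glycoprotein gene Fbln2 (fibulin-2) had the largest rise, from 171.66 and 208.88 to 621.55 and 906.30 normalized counts. Its log2 fold change was 1.98 (SE 0.11, limma adjusted p = 2.1e-10), and both Ctcf-null libraries were far above both controls. Fbln1, at 0.30, and Reln, which encodes the reelin that guides cortical layering, at 0.26, rose as well, though neither passed in DESeq2 (adjusted p of 0.13 and 0.31).

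Among the 17 genes for enzymes and chaperones that process collagen 1 rose and 3 fell (5.88% and 17.6%). Over all tested genes 3.67% rose and 10.1% fell. P4ha1, a subunit of the prolyl hydroxylase, rose by 0.55 on the log2 scale. Bmp1, which trims procollagen, fell by 0.66. The falls of the collagen chaperone gene Serpinh1 (-0.27) and of the crosslinking enzyme gene Loxl3 (-0.48) were lost in edgeR, with adjusted p of 0.056 and 0.063. Of 20 receptor genes Itga5 (0.76), the partner of Itgb1 in the fibronectin receptor, and Itgb5 (0.57) rose and 0 fell. Of 11 proteases and inhibitors 2 rose (18.2%), Timp3 (0.32), a metalloprotease inhibitor, and Adamts5 (0.54), which cuts lecticans. In DESeq2 the adjusted p was 0.40 for Itgb5, 0.27 for Timp3 and 0.32 for Adamts5.

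Each lectican gene has a link protein gene as a neighbour, whose product clamps lecticans to hyaluronan. Hapln3, beside Acan, rose, with 59.59 and 100.06 normalized counts in controls, compared with 111.72 and 171.30 (fold change 0.83 on the log2 scale, SE 0.18, limma adjusted p = 0.0033). In DESeq2 it did not pass (adjusted p = 0.12). The annotated 3′ ends of Acan and Hapln3 converge with 2 bases between them, so without strand information reads beyond either end cannot be assigned. Whether such reads enter the Acan value was not tested. Hapln1, 43659 bases from Vcan, had a log2 fold change of -0.24 (limma adjusted p = 0.76), and Hapln2, 21519 bases from Bcan, had 0.02 (adjusted p = 0.98). Hapln4, beside Ncan, had 2 or 3 reads in each library and was not tested. The link proteins were paired with the lecticans after their values were seen.

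**Figure D3:**
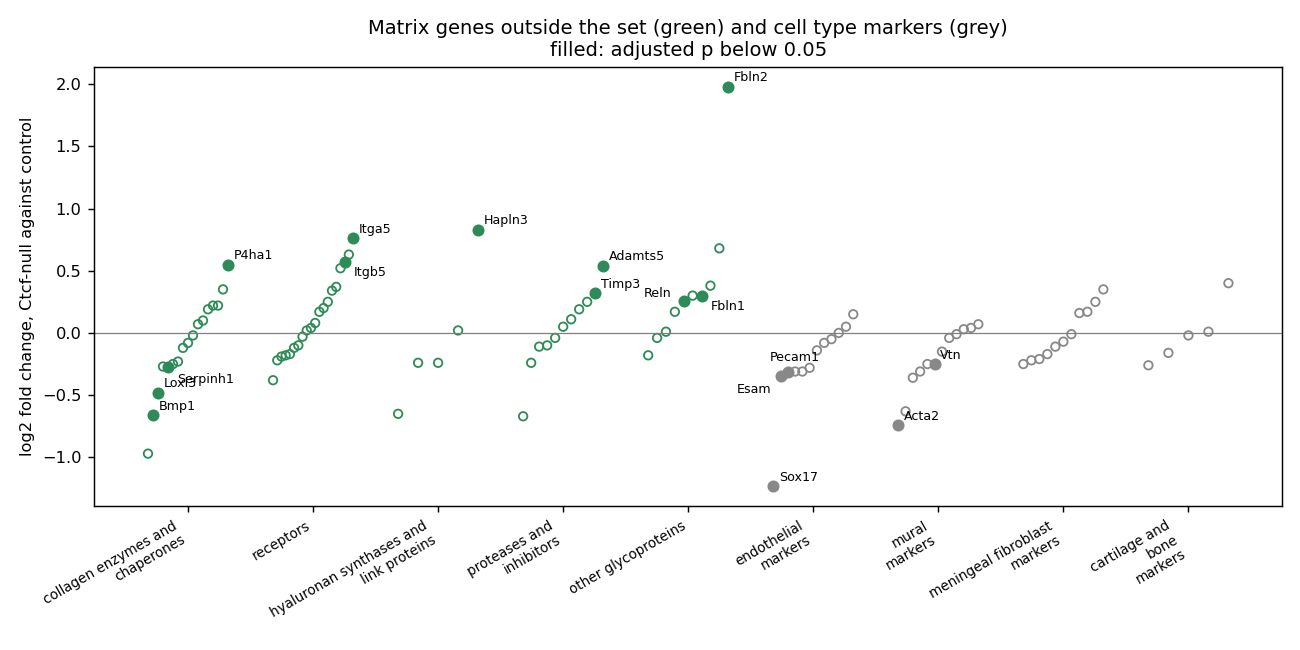
Log2 fold change of Ctcf-null against control for matrix genes outside the set (green, 5 lists) and for markers of vessel, meningeal and skeletal cells (grey, 4 lists); filled points have an adjusted p under 0.05, and genes are ordered by value within each list. Fbln2 stands highest at 1.98, and the filled marker genes, 3 endothelial and 2 mural, all lie below 0.

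Of the markers of cells that make vascular matrix, a minority passed, all of them lower in Ctcf-null libraries. Of 12 endothelial markers 0 rose and 3 fell (Pecam1, Esam and Sox17), with a median of -0.21, and their summed normalized count was 4255.1 and 10222.7 in the controls, compared with 3744.8 and 9349.8 in the Ctcf-null libraries. Of 12 mural markers 0 rose and 2 fell (Vtn and Acta2), with a median of -0.20 and sums of 3647.6 and 5497.2 against 3191.2 and 4540.0. Over all tested genes 10.1% fell, against 25.0% of the endothelial and 16.7% of the mural markers. With edgeR 2 endothelial markers and 1 mural marker fell. With upper-quartile scaling 1 of each fell and the medians were -0.07 and -0.10, and in DESeq2 0 of either passed. Agrn, which fell, and Col4a1, Col4a2 and Sparc, which did not pass, were also below 0. Other matrix genes were above 0 and did not pass, among them Lama4 (0.22), Lamb2 (0.11) and Hspg2 (0.02). The median of all tested genes was itself below 0 (-0.07). The part of vessel cells in the matrix differences was not tested. Of 11 meningeal fibroblast markers 0 passed, with a median of -0.07 and sums of 2025.3 and 2911.8 against 2141.8 and 2821.0. In edgeR 1 of them rose with TMM scaling, and 2 rose with upper-quartile scaling, where the median was 0.03. In DESeq2 0 passed.

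The marker lists that follow were smaller, and at most 2 genes of each passed. Of 8 radial glia markers 2 fell, Hes5 and Fabp7, with a median of -0.15 and sums of 48688.1 and 76145.4 against 35351.8 and 61858.4. Of 6 neuron markers 2 fell, Tubb3 and Elavl4, with a median of -0.19 and sums of 308954.8 and 215041.4 against 223392.0 and 173943.7. Of 8 choroid plexus markers 2 rose, Ttr and Otx2, with a median of 0.22 and sums of 73708.1 and 25576.1 against 96450.1 and 36659.2. Of 8 microglia markers 1 rose, C1qb, with a median of 0.32 and sums of 1107.4 and 2911.8 against 1374.6 and 3558.4. Of 7 red blood cell genes 0 passed, with medians of -0.58 and 0.12 in the pairs and sums of 1341557.8 and 573470.4 against 923257.3 and 623630.1. Over all tested genes 3.67% rose and 10.1% fell. Of the choroid plexus and microglia markers 25.0% and 12.5% rose, and of the radial glia and neuron markers 25.0% and 33.3% fell. In DESeq2 Otx2 and C1qb did not pass (adjusted p of 0.20 and 0.081). No gene of these lists was at 0 in all libraries, and their part in the matrix differences was not tested.

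The difference between the pairs was several times larger than that between the genotypes in the matrix genes too. The median absolute log2 difference over the 72 genes was 0.86 between the controls and 0.69 between the Ctcf-null libraries, against 0.16 between genotypes. The same medians over all tested genes were 0.87, 0.80 and 0.20. Control 2 was at least 2-fold above control 1 in 19 matrix genes and at least 2-fold below it in 11, together 41.7%, against 44.2% of all tested genes.

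Many of these differences were present in both genotypes. Of the 72 matrix genes 15 were at least 2-fold higher in pair 2 in controls and Ctcf-null libraries alike, and 6 were at least 2-fold lower. Of all 22158 tested genes 4669 were higher and 3025 lower by this rule. Col9a3, Bcan and Col1a1 were among the higher genes, and Tnc and Lamb1 among the lower. The log2 differences of the controls and of the Ctcf-null libraries correlated at r = 0.92 across the 72 genes, which share their libraries and are not independent. This r was also 0.92 across 22020 tested genes, so it is not particular to the matrix genes. The genes higher in pair 2 had a median transcript length of 5104 bases and a GC content of 56.7%, and the genes lower in pair 2 had 8316 bases and 52.5%. Across the 72 genes the pair difference in controls correlated with log2 transcript length at r = -0.51 and with GC content at r = 0.33. Across 22020 tested genes with a matched transcript these values were -0.01 and 0.39. The fold change between genotypes correlated with GC content at -0.10 and with log2 length at 0.02 in the matrix genes. These correlations were added after the data were seen, and the part of library preparation in the pair difference was not tested.

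**Figure D4:**
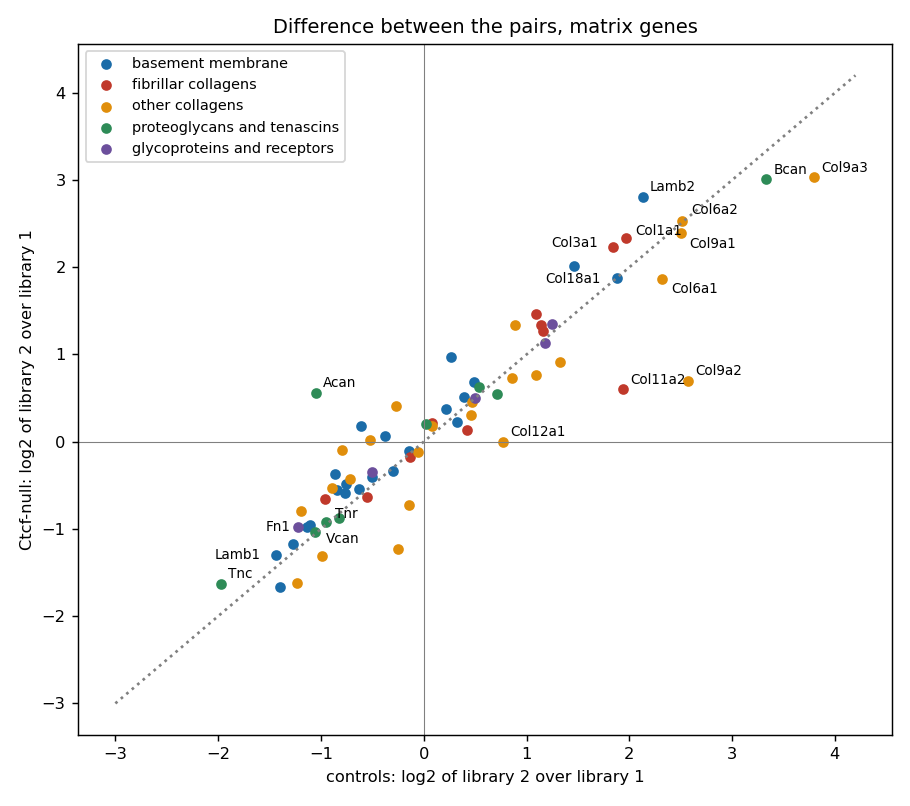
For each of the 72 matrix genes, log2 of library 2 over library 1 in the controls (horizontal axis) and in the Ctcf-null libraries (vertical axis), coloured by group, with the line of equal values dotted. Most genes follow the line over a wide range, and among the genes farthest off it are Col9a2 (2.57 in controls and 0.70 in Ctcf-null libraries), Acan (-1.05 and 0.56), Col11a2 (1.94 and 0.60) and Col17a1 (-0.25 and -1.23).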

How the data were processed

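RNA-seq libraries were made from E14 telencephalon with a SMART cDNA kit, per the labels' protocols. The submitters' processing notes name the mm10 genome, STAR 2.5.3 and DESeq2. Which tool counted the reads per gene, and on which annotation, is not stated there. Per the file headers, the authors deposited normalized read counts per library, a signal without division by gene length, together with log2 fold changes per pair and their average, which were not used for any value in the text. At least 99.972% of values in each library were whole multiples of 1 step within a tolerance of 0.005, which returned the reads and the depth. Gene models were taken from GENCODE M21 (GRCm38, the assembly that mm10 names), and 48349 genes matched by identifier.

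Genes were filtered with filterByExpr (edgeR 4.0.16) on these reads. The test was limma 3.58.1 in R 4.3.3 on log2(normalized count + 1), with a trend of variance on mean and terms for pair and genotype. With 1 residual degree of freedom, its spread comes mostly from all genes together (median prior degrees of freedom 18.1). The pairing comes from the submitters' design text, which speaks of 2 pairs, and same-numbered libraries correlated at 0.987 and 0.984, against 0.887 to 0.903 for other numbers. Their deviations from the group means correlated at 0.923. On simulated data (22158 genes, 200 changed) this test recovered 62.2%, 96.7% and 97.0% of genes changed 1.5-fold, 2-fold and 4-fold, with 7 false calls. The simulated spread followed the trend alone, so these rates are a best case. The changed genes were drawn only from genes above a minimum of mean reads, so the rates do not cover genes with few reads. Alternatives were no block, the quasi-likelihood test of edgeR on recovered reads with TMM or upper-quartile factors, DESeq2 1.42.0, TMM scaling in limma, other pseudocounts and filters, and leaving out libraries or pairs. With edgeR on the recovered reads 2643 genes were called (1063 higher and 1580 lower), against 3041 in limma.

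The set, the gene lists and the test were chosen with earlier results of these data known, including the calls with and without the block. Named in full are the genes that passed, the 3 of highest mean normalized count in each of 5 groups, the collagen IV genes, the laminin-111 genes, Dag1, Itga6 and Itgb1. Part of the marker results is not reported here.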

Additional observations from a re-analysis of the deposited data

How the results depend on the processing

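Every call depends on the block of pairs. Without the replicate block limma called 0 genes higher and 0 lower over all tested genes and 0 matrix genes in either direction. Scaling moved the balance of all calls: rises were 26.7% of calls with the authors' size factors, 40.2% in edgeR with TMM, 56.0% with upper-quartile factors (1358 higher and 1069 lower), 41.6% in limma with TMM scaling (1349 lower) and 34.7% in DESeq2 (289 and 543), and the median of all genes moved from -0.07 to 0.03. With upper-quartile factors the median of the matrix genes was 0.09, against 0.00. The matrix calls stayed between 3 and 5 higher and 2 and 3 lower in every fit with the block. Acan was lost with a pseudocount of 0.5, was not tested under the stricter filter and had no adjusted p in DESeq2. Agrn was lost with upper-quartile factors and in DESeq2. Of the other matrix genes 1 fell in edgeR with either scaling, against 3, and in DESeq2 3 rose, against 9, and 1 fell. The last 2 fits were added for these genes after the data were seen. Values near 0 changed sign with scaling: Dcn was at 0.03 in edgeR with TMM, 0.09 with upper-quartile factors, 0.01 in DESeq2 and 0.03 in limma with TMM. Lamb1 was at 0.04, 0.08, 0.01 and 0.05 in the same fits. Fn1 was at 0.01, 0.06 and 0.02 in edgeR with TMM, with upper-quartile factors and in limma with TMM. Itga6 was at 0.04 with upper-quartile factors and 0.00 in limma with TMM, Itgb1 at 0.04 and Ncan at 0.02 with upper-quartile factors. The cause of these shifts was not tested.

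Leaving out 1 library ends the pairing, since the block cannot be kept, and the remaining genotype contrast then holds part of the pair difference by construction. Over all genes 0 to 0 were then called higher and 0 to 2 lower, 0 matrix genes passed, and the median of the matrix genes ranged from -0.05 to 0.14. Of the genes that passed with the block, Bcan ranged from -0.85 to 2.49 and Vcan from -0.14 to 0.92, while Tnr, Col2a1, Agrn, Col12a1 and Acan kept their sign. Of the others the ranges were -1.15 to 1.18 for Col1a1, -0.47 to 0.79 for Col1a2, -1.11 to 1.12 for Col3a1, -0.66 to 0.43 for Col26a1, -0.46 to 0.06 for Col4a1, -0.61 to 0.07 for Col4a2, -0.12 to 0.64 for Col4a3, -0.28 to 0.10 for Col4a6, -0.95 to 1.37 for Col6a1, -1.96 to 1.84 for Col9a3, -0.63 to 0.72 for Dag1, -0.37 to 0.33 for Dcn, -0.64 to 0.58 for Fn1, -0.30 to 0.20 for Itga6, -0.32 to 0.19 for Itgb1, -0.86 to 0.40 for Lama1, -0.73 to 0.71 for Lamb1, -0.56 to 0.58 for Lamc1, -0.52 to 0.35 for Ncan and -0.72 to 0.46 for Sparc. When a whole pair was left out, all 7 genes that passed kept their direction in the other pair, as a value with no test, and Col4a6 ranged from -0.31 to 0.13. Depth limits Acan and the other genes with few reads.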
